A study of Bos taurus with 16 samples.

Results

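The genes described here encode inflammatory cytokines and chemokines, with a few of their receptors and antagonists. The list holds 33 gene symbols, and 31 of them had counts in the files, of 20629 features in all. No accession in the files matched TNFSF10, which was not analysed here, and RefSeq's gene table gives CXCL6 as an older name of CXCL5, so that both names stand for 1 record. The level of a gene is given as CPM, the summed counts of all its RefSeq accessions scaled to 1000000 transcript counts of the library.

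RNA was sequenced from cells pelleted out of the aspirate of the dominant ovarian follicle of lactating Holstein dairy cows, which was reached through the vagina 63 ± 3 days post partum. The cohort numbered 45 cows. Of the 16 libraries, 7 have the label treatment and 9 the label control. Neither word is defined further; the title of the series concerns granulosa cells after resolved uterine disease, and cows of the cohort that had metritis were given ceftiofur, an antibiotic. All cows were on an ovulation synchronisation programme of GnRH and prostaglandin F2α, and the follicle was emptied just before the next GnRH injection. The tissue field reads blood in all 16 libraries, whereas the protocol describes granulosa cells, and no label ties a library to a cow. The p-values below therefore measure the spread between these libraries only.

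Cytokines are secreted proteins through which cells of the immune system and their neighbours signal, and chemokines are the branch that attracts cells along a gradient. Interleukin-1 and tumour necrosis factor start the cascade through NF-kappaB, and the interleukin-1 receptor antagonist and the decoy receptor IL1R2 restrain it. CXC chemokines with an ELR motif attract neutrophils, the CC chemokines here attract monocytes and lymphocytes, and CXCL9 and CXCL10 are induced by interferon gamma. In the follicle, ovulation resembles an acute inflammation: granulosa and theca cells make several of these factors after the surge of luteinising hormone, and leukocytes enter the follicle wall.

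Files held 9091250 to 12939024 counts per treatment library and 8111862 to 14348753 per control library, so that 3 counts correspond to 0.212 to 0.375 CPM. The libraries fell into 2 kinds by INHA, the inhibin alpha subunit of granulosa cells. In 7 libraries INHA was at 0.404 to 111 CPM and in 9 at 1759 to 3041 CPM, and these are called leukocyte-rich and granulosa-rich. The thresholds were an INHA level under 200 CPM and one above 1000 CPM. CD14, a monocyte and macrophage receptor, lay between 1859 and 4031 CPM in the leukocyte-rich libraries and between 5.32 and 332 CPM in the granulosa-rich ones. PTPRC (CD45) lay between 118 and 312 CPM in the leukocyte-rich and between 6.35 and 98.0 CPM in the granulosa-rich libraries. The leukocyte-rich libraries thus go against a label of granulosa cells. They were treatment replicates 1, 2 and 3 and control replicates 1, 5, 6 and 9. The granulosa-rich libraries were treatment replicates 4, 5, 6 and 7 and control replicates 2, 3, 4, 7 and 8. The kinds come from the data and are not groups of the study, so differences between them are described and not tested. In such mixed samples, fewer cells of a type and less RNA per cell cannot be told apart.

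Most of the cytokine and chemokine genes had far higher levels in the leukocyte-rich libraries. Of 26 members with at least 10 counts in some library, 8 lay higher in every leukocyte-rich library than in any granulosa-rich one: IL1A, IL6, IL10, CCL2, CCL3, CCL4, CCL8 and CXCL16. The same held for 8.86% of the 13514 features counted this way. The other 18 overlapped, and 0 of the 26 lay lower in every leukocyte-rich library, against 4.49% of features. The median of CCL8, a monocyte chemokine, was 678 CPM in the leukocyte-rich libraries and 7.86 CPM in the granulosa-rich ones, a ratio of 86.2. For CXCL5, an ELR chemokine, the medians were 2296 and 5.00 CPM, a ratio of 459, and the ranges still overlapped. Without control replicate 3, a granulosa-rich library, 12 members in place of 8 did not overlap. The share of all features was not recorded without that library, so this rise cannot be read as particular to the members. Control replicate 3 had the highest level of all granulosa-rich libraries in 12 of the 24 members with at least 10 counts in 1 of them, and in 16.6% of all features. It also had the highest summed level of the 10 pan-leukocyte markers among the granulosa-rich libraries (1039 CPM, others 15.9 to 879). Its B and plasma cell markers summed to 2761 CPM and its epithelial markers to 1745 CPM, and the part of such cells in these levels was not tested. Treatment replicate 4 was the highest in 6 of the 24 members, and in 14.7% of features.

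**Figure D1:**
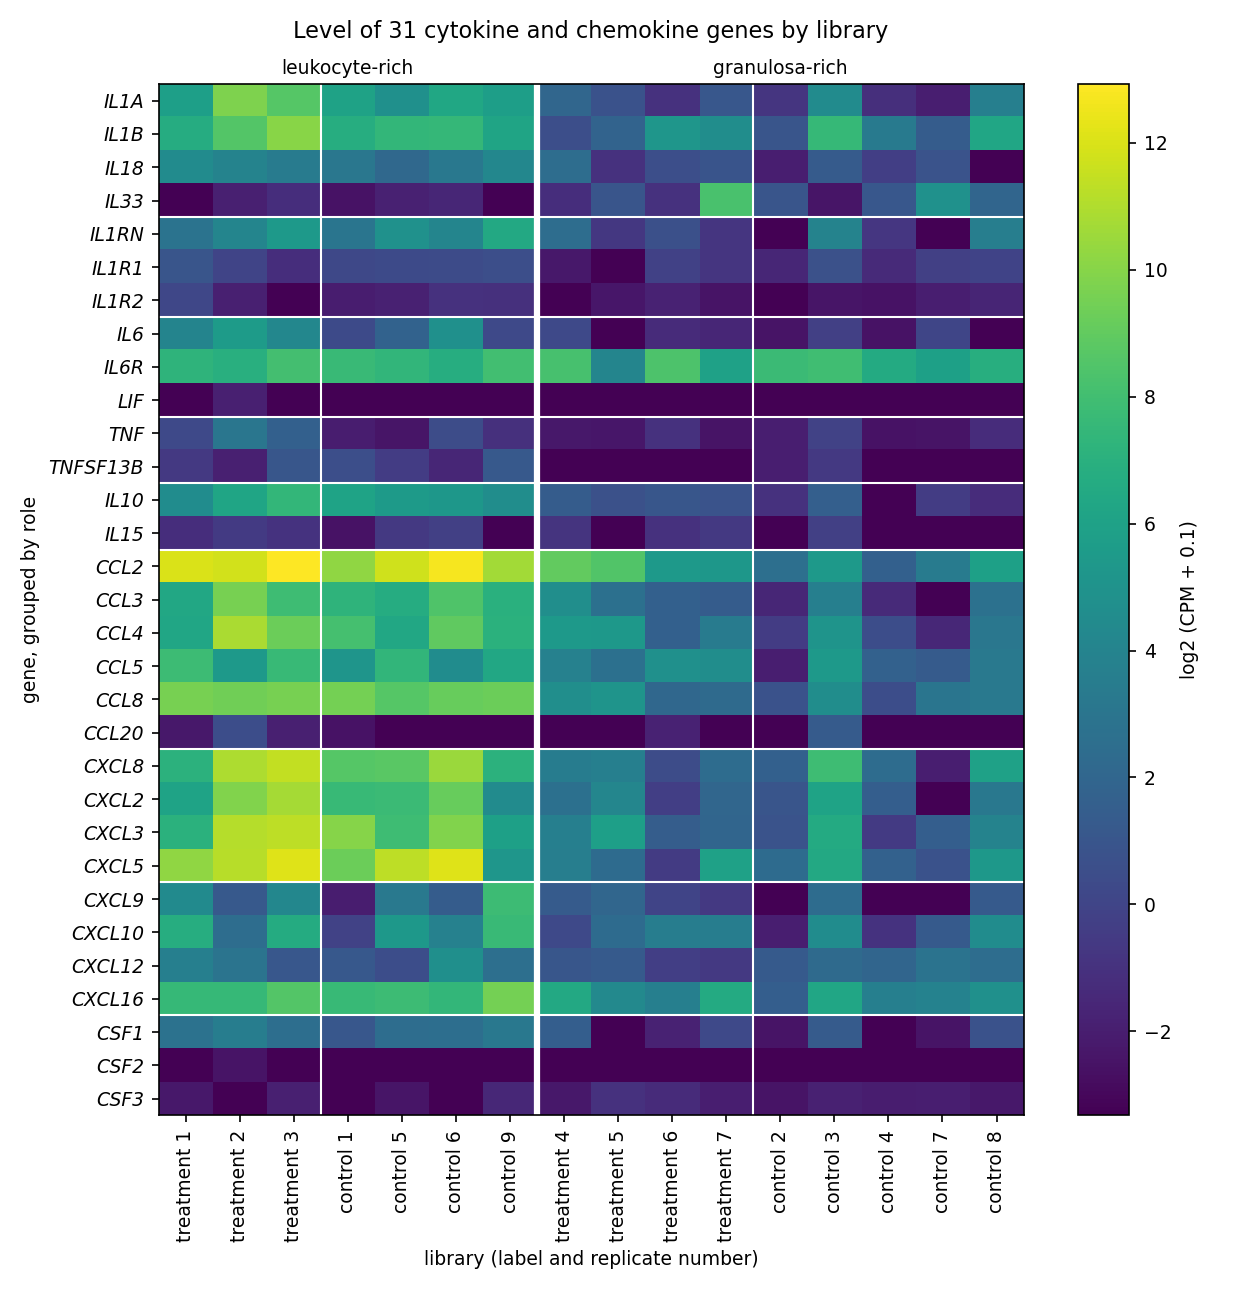
Level of the 31 measured cytokine and chemokine genes (rows, grouped by role) in each of the 16 libraries (columns), as log2 (CPM + 0.1) on a colour scale. The thick white line parts 7 leukocyte-rich from 9 granulosa-rich libraries, and the thin vertical lines part treatment (left) from control; most rows are brighter on the leukocyte-rich side, and control replicate 3 stands out on the other.

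Exceptions included IL6R and IL33. The ratio of medians was also small for CXCL12 (2.57) and IL1R1 (2.47), whose ranges overlapped. IL6R, the receptor that binds interleukin-6, had a median of 168 CPM in leukocyte-rich and 114 CPM in granulosa-rich libraries, with ranges of 112 to 269 CPM and 16.4 to 338 CPM. IL33, an alarmin of the interleukin-1 family that stromal and epithelial cells release on damage, was at most 0.338 CPM in the leukocyte-rich libraries. Among the granulosa-rich libraries IL33 was at 0.330, 1.83, 0.396 and 303 CPM in treatment, against 1.82, 0.0923, 2.05, 29.4 and 3.88 CPM in control. Treatment replicate 7 held the value of 303 CPM, and the other treatment libraries lay within the control range. In that library CYP19A1 (aromatase) was at 276 CPM, against 8439 to 22128 CPM in the other 3 granulosa-rich treatment libraries, and the 7 endothelial markers summed to 135 CPM, against 4.78 to 16.2 CPM. Their part in the IL33 level was not tested. The fitted log2 fold change of IL33 between treatment and control in the granulosa-rich libraries was 2.83 ± 1.95 (SE; edgeR's quasi-likelihood test, unadjusted p = 0.175, adjusted p = 0.983). It was -3.51 without treatment replicate 7.

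Of the interleukin-1 ligands, IL1A and IL1B were highest in 2 of the 3 leukocyte-rich treatment libraries. IL1A, a form of interleukin-1 that is active without cleavage, was at 57.1, 869 and 408 CPM in leukocyte-rich treatment libraries, against 64.6, 28.5, 80.6 and 56.2 CPM in leukocyte-rich control libraries. Treatment replicates 2 and 3 lay above all 4 controls and replicate 1 among them. Theca and stromal markers summed to 11020 CPM in treatment replicate 2 and to 401 CPM in treatment replicate 3. These were the highest and the lowest sums of the leukocyte-rich libraries, and the part of such cells in the IL1A level was not tested. The log2 fold change was 2.94 ± 0.80 (SE, 3 treatment and 4 control libraries; edgeR, unadjusted p = 0.00772, adjusted p = 0.9996), and 2.09 without treatment replicate 2. In granulosa-rich libraries IL1A was at 3.96, 1.63, 0.396 and 2.05 CPM in treatment, against 0.476, 22.3, 0.354, 0.162 and 12.9 CPM in control. The groups overlapped there, with control replicates 3 and 8 the highest.

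IL1B, the secreted form that caspase-1 activates, was at 108, 379 and 1058 CPM in leukocyte-rich treatment libraries, against 111, 170.0, 181 and 72.6 CPM in leukocyte-rich controls. Again treatment replicates 2 and 3 were above all controls and replicate 1 was not. Its fitted log2 fold change was 1.99 ± 0.73 (SE; edgeR, unadjusted p = 0.0290, adjusted p = 0.9996), and 0.81 without treatment replicate 3. In granulosa-rich libraries IL1B was at 1.43, 3.46, 36.4 and 24.8 CPM in treatment, against 1.82, 185, 9.76, 2.59 and 76.8 CPM in control. These ranges overlapped, and control replicates 3 and 8 were again the highest.

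IL18, a ligand that needs the same cleavage, was at 22.5, 15.2 and 10.6 CPM in leukocyte-rich treatment libraries, against 8.70, 4.40, 9.04 and 18.6 CPM in leukocyte-rich controls. Its granulosa-rich levels were 5.60, 0.407, 1.38 and 1.73 CPM in treatment, against 0.159, 2.40, 0.707, 1.70 and 0 CPM in control. Both pairs of ranges overlapped.

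The antagonist of the pathway was highest in a control library. IL1RN, which blocks the interleukin-1 receptor, was at 7.12, 16.7 and 45.0 CPM in leukocyte-rich treatment libraries, against 7.74, 29.5, 16.6 and 89.1 CPM in leukocyte-rich controls. The ranges overlapped, with control replicate 9 at the top. In granulosa-rich libraries IL1RN was at 5.49, 0.508, 1.48 and 0.472 CPM in treatment, against 0, 15.6, 0.495, 0 and 12.4 CPM in control, and here too the ranges overlapped. The signalling receptor IL1R1 reached at most 17 counts in any library (0 to 1.89 CPM). The decoy receptor IL1R2 was near or below the level of 3 counts: 1.00, 0.164 and 0 CPM in leukocyte-rich treatment and 0.147, 0.180, 0.404 and 0.375 CPM in leukocyte-rich control libraries, and at most 9 counts in any library. Granulosa-rich libraries had 0, 0.102, 0.198 and 0.0787 CPM of IL1R2 in treatment, against 0, 0.0923, 0.0707, 0.162 and 0.216 CPM in control. No difference in IL1R2 was detectable at this depth.

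TNF, the cytokine that macrophages release first in inflammation, was low in every library. It was at 1.11, 8.11 and 3.04 CPM in leukocyte-rich treatment libraries, against 0.147, 0.0898, 1.29 and 0.375 CPM in leukocyte-rich controls. Treatment replicate 1 lay just below control replicate 6, and the other treatment libraries above all controls. The log2 fold change was 3.04 ± 0.98 (SE; edgeR, unadjusted p = 0.0161, adjusted p = 0.9996). It was 2.14 without treatment replicate 2 and 4.34 without control replicate 6. In granulosa-rich libraries TNF was at 0.110, 0.102, 0.396 and 0.0787 CPM in treatment, against 0.159, 0.831, 0.0707, 0.0811 and 0.324 CPM in control, which is at most 9 counts. TNFSF13B (BAFF), a survival factor of B cells, was at 0.556, 0.164 and 1.94 CPM in leukocyte-rich treatment libraries, against 1.40, 0.629, 0.242 and 2.25 CPM in leukocyte-rich controls. It had 0 counts in all 4 granulosa-rich treatment libraries and in 3 of the 5 controls, with 0.159 and 0.554 CPM in the other two.

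Of the interleukin-6 family, IL6 was present mainly in leukocyte-rich libraries. IL6, which drives the acute phase response, was at 15.9, 48.7 and 18.3 CPM in leukocyte-rich treatment libraries, against 1.18, 3.32, 28.9 and 1.12 CPM in leukocyte-rich controls. All 3 treatment libraries exceeded 3 of the 4 controls, and control replicate 6 lay among them. Granulosa-rich libraries had 1.10, 0, 0.297 and 0.236 CPM in treatment, against 0.0793, 0.739, 0.0707, 0.973 and 0 CPM in control. LIF, a related cytokine, had 2 counts in treatment replicate 2 (0.164 CPM) and 0 in the other 15 libraries. IL10, which dampens macrophage activation, ranged from 23.4 to 171 CPM in leukocyte-rich and from 0 to 2.95 CPM in granulosa-rich libraries. IL15, a growth factor of NK cells, had at most 9 counts in any library.

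Among CC chemokines, CCL2 showed the lowest p of all members in the granulosa-rich libraries. CCL2, the main attractant of monocytes, was at 513, 371, 44.5 and 37.9 CPM in granulosa-rich treatment libraries, against 6.03, 43.8, 3.11, 10.5 and 59.6 CPM in granulosa-rich controls. Treatment replicates 4 and 5 lay above all controls, and replicates 6 and 7 overlapped control replicates 3 and 8. Treatment over control gave a log2 fold change of 3.28 ± 0.99 (SE, 4 treatment and 5 control libraries; edgeR, unadjusted p = 0.00726, adjusted p = 0.983). Leaving out each library in turn gave 2.78 to 3.86. Leukocyte-rich libraries had 4104, 3656 and 7790.1 CPM in treatment, against 1185, 3419, 6790.1 and 1665 CPM in control, with overlapping ranges. Most monocyte and macrophage markers also had higher medians in treatment in the granulosa-rich libraries. The 11 measured markers summed to 342 to 1789 CPM in treatment and to 22.5 to 720 CPM in control, and 10 of the 11 had a higher median in treatment. CD163 and C1QB had 0 counts in all 5 granulosa-rich controls. Treatment replicate 4 had the highest marker sum and the highest CCL2 level of these libraries. Treatment replicates 5 and 6 had like sums, 607 and 522 CPM, with CCL2 at 371 and 44.5 CPM. Control replicate 3, with a sum of 720 CPM, had 43.8 CPM of CCL2. The part of these cells in the CCL2 level was not tested.

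CCL4, an attractant of monocytes and T cells, was at 78.0, 1877 and 626 CPM in leukocyte-rich treatment libraries, against 287, 85.8, 494 and 130.3 CPM in leukocyte-rich controls. Treatment replicate 1 was the lowest of the 7 and replicate 2 the highest. The log2 fold change was 1.76 ± 0.99 (SE; edgeR, unadjusted p = 0.119, adjusted p = 0.9996), and 0.56 without treatment replicate 2. In granulosa-rich libraries CCL4 was at 41.8, 39.7, 3.07 and 10.9 CPM in treatment, against 0.635, 34.0, 1.34, 0.243 and 8.42 CPM in control, and the ranges overlapped.

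CCL5 (RANTES), which T and NK cells make, was at 226, 43.6 and 200.0 CPM in leukocyte-rich treatment libraries, against 35.0, 166, 23.9 and 85.3 CPM in leukocyte-rich controls. Granulosa-rich libraries had 13.8, 6.31, 28.0 and 24.5 CPM in treatment, against 0.159, 42.1, 3.25, 2.43 and 9.28 CPM in control. Both pairs of ranges overlapped. CCL3, a close relative of CCL4, and CCL8 overlapped between treatment and control in both kinds of library, and CCL20, an attractant of CCR6-bearing cells, reached 27 counts in control replicate 3 and at most 16 elsewhere. CCL3 and CCL4 have near-identical copies in some mammals, so their counts may be uncertain, which was not tested.

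The 4 measured ELR CXC chemokines (CXCL8, CXCL2, CXCL3 and CXCL5) all had higher fitted values in treatment among leukocyte-rich libraries and lower ones among granulosa-rich libraries, and none passed the test. Their granulosa-rich medians went the other way. They were 8.13 CPM in treatment against 5.38 CPM in control for CXCL8 and 5.23 against 2.83 for CXCL2. For CXCL3 they were 8.43 against 2.76 CPM and for CXCL5 8.70 against 5.00 CPM. Control replicate 3 had the highest granulosa-rich level of each. CXCL8 (interleukin-8) was at 137, 1908 and 2753 CPM in leukocyte-rich treatment libraries, against 402, 434, 1463 and 136 CPM in leukocyte-rich controls. Treatment replicates 2 and 3 were above all controls, while replicate 1 was level with control replicate 9, the lowest. In granulosa-rich libraries CXCL8 was at 11, 12.7, 1.29 and 5.27 CPM in treatment, against 3.09, 237, 5.38, 0.162 and 64.2 CPM in control. Control replicates 3 and 8 exceeded all treatment libraries, and the other controls lay at or below the treatment range or within it. The log2 fold change there was -2.92 ± 1.51 (SE; edgeR, unadjusted p = 0.0801, adjusted p = 0.983), and -1.22 without control replicate 3. CXCL5 ranged from 37.4 to 4440.0 CPM over the leukocyte-rich libraries, with both ends among controls. The ELR chemokines arose from recent duplications, and how reads mapping to several of them were counted is not given in the sources used here.

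Neutrophil markers also varied among the leukocyte-rich libraries. The 8 measured ones summed to 911 to 1412 CPM in treatment and to 11.7 to 3855 CPM in control, LTF being at 0 in all 7. The highest value was that of control replicate 6, which had 1463 CPM of CXCL8, and the lowest that of control replicate 9, with 136 CPM of CXCL8. Treatment replicate 1, with the second highest sum (1412 CPM), had 137 CPM of CXCL8, and treatment replicate 3, with 911 CPM, had the highest CXCL8 level, 2753 CPM. Their part in the chemokine levels was not tested.

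CXCL12 was at most 27.1 CPM in any library, and its CPM was lower in each granulosa-rich treatment library than in any granulosa-rich control, a separation that was lost with TMM scaling. CXCL12, the stromal ligand of CXCR4 that retains leukocytes and progenitor cells, was at 1.98, 2.34, 0.692 and 0.551 CPM in granulosa-rich treatment libraries, against 2.38, 4.89, 3.82, 7.22 and 5.50 CPM in granulosa-rich controls. The gap between the groups was narrow, 2.34 CPM in treatment replicate 5 against 2.38 CPM in control replicate 2. With the TMM factors of the granulosa-rich fit these libraries were at 2.62 and 2.34, so that the groups overlapped. The log2 fold change was -1.98 ± 0.69 (SE; edgeR, unadjusted p = 0.0160, adjusted p = 0.983), and leaving out each library in turn gave -2.50 to -1.52. CXCL12 was the 1 member of the 21 tested whose groups did not overlap there in CPM, and with TMM scaling there were 0. Lower in every treatment library were 0.55% of the 9272 features tested, and higher in every one 1.18%. Leukocyte-rich libraries had 12.9, 7.54 and 2.03 CPM in treatment, against 2.14, 1.35, 27.1 and 6.12 CPM in control, and overlapped. The 10 theca and stromal markers summed to 187 to 1105 CPM in granulosa-rich treatment libraries and to 430.2 to 2958 CPM in granulosa-rich controls, with PDGFRB at 0 in all 9. Of these markers 7 had a higher and 2 a lower median in treatment, and their part in the CXCL12 level was not tested.

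CXCL16, a chemokine that macrophages carry on their membrane, was at 192, 185 and 389 CPM in leukocyte-rich treatment libraries, against 197, 221, 171 and 729 CPM in leukocyte-rich controls. Granulosa-rich libraries had 90.9, 20.3, 13.0 and 96.9 CPM in treatment, against 2.86, 79.6, 12.9, 14.7 and 27.8 CPM in control. Treatment and control overlapped in both kinds. CXCL9 ranged from 0.147 to 224 CPM and CXCL10 from 0.811 to 205 CPM over the leukocyte-rich libraries. For both, control replicate 1 was the lowest of these libraries and control replicate 9 the highest.

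Of the colony-stimulating factors, CSF1, the growth factor of macrophages, was at 7.01, 11.6 and 5.82 CPM in leukocyte-rich treatment libraries, against 2.06, 5.57, 5.65 and 8.99 CPM in leukocyte-rich controls. It was at 2.75, 0, 0.198 and 1.10 CPM in granulosa-rich treatment libraries, against 0.0793, 2.49, 0, 0.0811 and 1.62 CPM in granulosa-rich controls. The ranges overlapped in both kinds. CSF2 had 1 count in all, in treatment replicate 2, and CSF3, which drives neutrophil production, had at most 4 counts in any library.

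**Figure D2:**
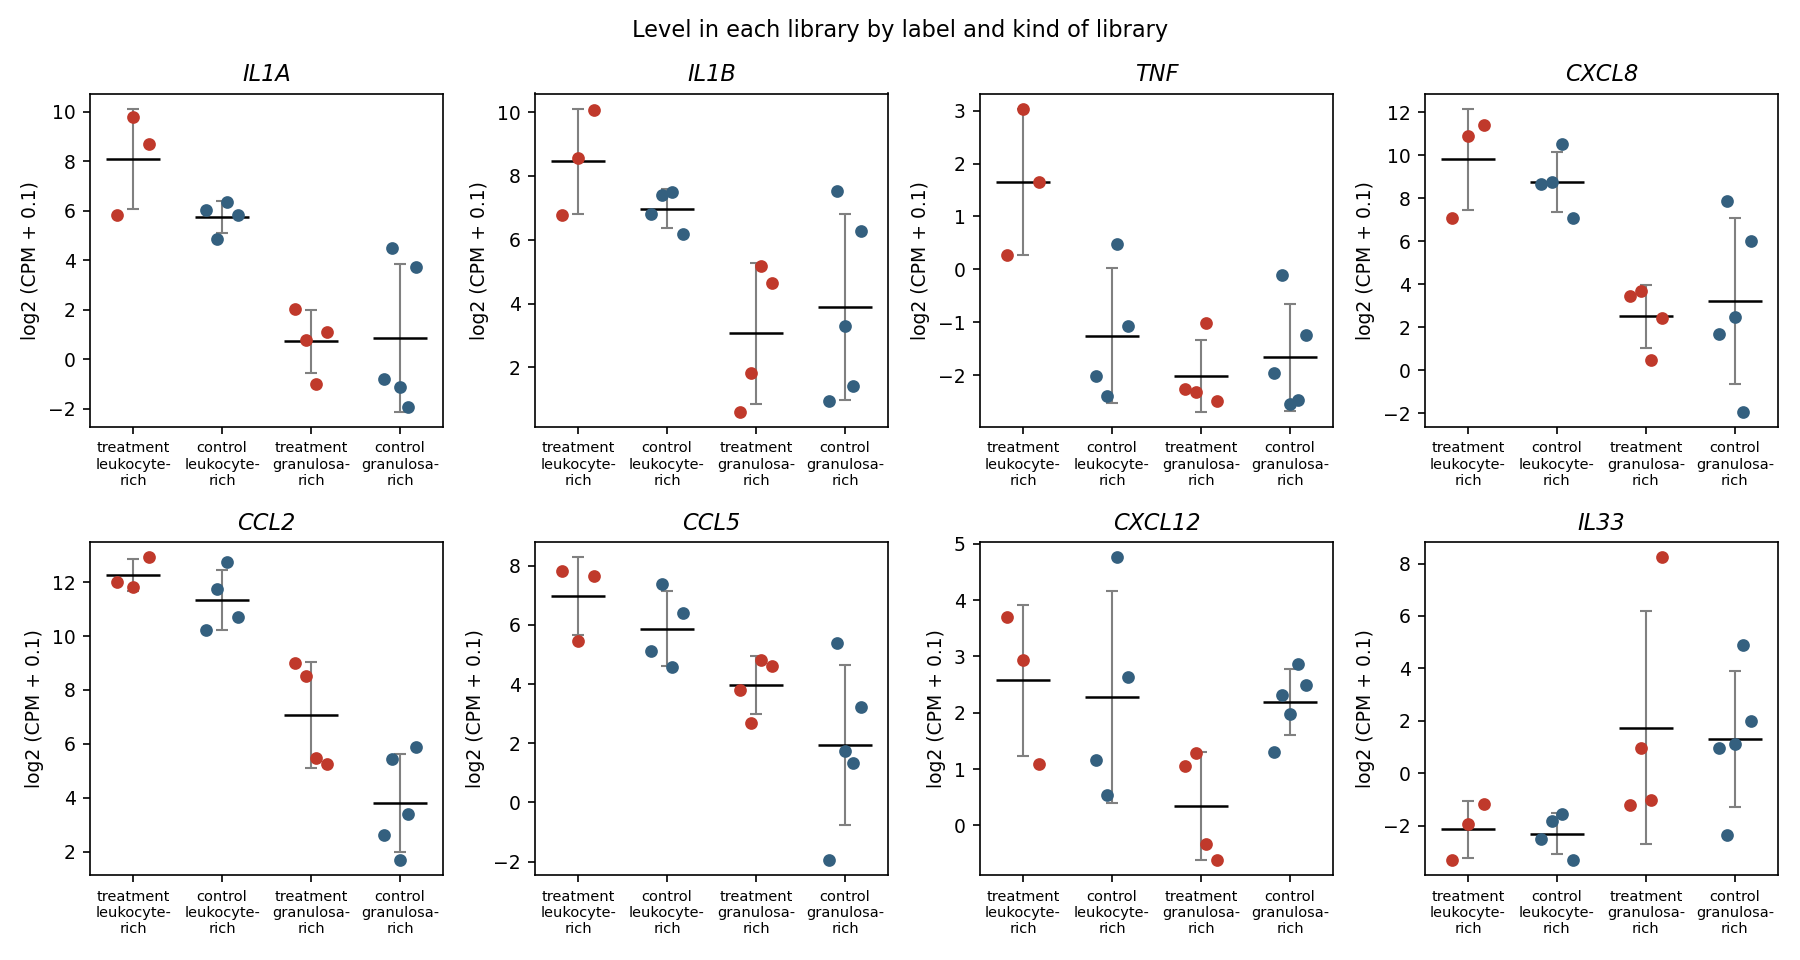
Levels of 8 members as log2 (CPM + 0.1), 1 point per library, by label (red, treatment; blue, control) and kind of library; black lines are means and grey bars SD (n = 3, 4, 4 and 5 libraries from left to right). IL1A, IL1B and TNF of 2 of the 3 leukocyte-rich treatment libraries lie above the controls, and CXCL12 of all 4 granulosa-rich treatment libraries lies below the 5 controls in CPM, though not with TMM scaling.

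Over the whole list, treatment and control were first compared within the leukocyte-rich libraries (3 treatment, 4 control). Of 24 members that passed the filter on low counts, 17 had higher fitted values in treatment, against 51.1% of the 9912 features tested. The median log2 fold change was 0.67 over the members and 0.01 over all features. No member passed an adjusted p of 0.05 with edgeR, nor did any feature (0%), and DESeq2 and limma-voom also called 0 features. An unadjusted p under 0.05 was found for 3 members (IL1A, TNF and IL1B), against 2.61% of features. No member had ranges apart in this comparison, where 1.99% of features were higher and 1.85% lower in every treatment library. Treatment replicate 2 or 3 was the highest of the 7 leukocyte-rich libraries in 15 of 25 members with at least 10 counts in 1 of them (7 and 8), and in 17.6% and 12.2% of all features. Control replicate 9 was the highest in 5 members (21% of features) and treatment replicate 1 in 3 (13.1%). Treatment replicate 1 also had the most granulosa RNA of the 7, with INHA at 111 CPM. The 10 pan-leukocyte markers summed to 5567 to 6886 CPM in treatment and to 7029 to 7931 CPM in control. That gap belongs to the sum, in which abundant markers weigh most: 4 of the 10 had a higher and 6 a lower median in treatment, and 0 of them had ranges apart. The mean log2 CPM of the same markers overlapped, at 6.80 to 7.35 in treatment and 6.94 to 7.49 in control. Of T and NK cell markers, the 13 summed to 523 to 1387 CPM in treatment and to 163 to 1310.3 CPM in control, and 12 of 13 had a higher median in treatment. Theca and stromal markers summed to 401 to 11020 CPM in treatment and to 532 to 2321 CPM in control, and epithelial markers to 58.9 to 1800.0 CPM and to 6.94 to 465 CPM. Treatment replicate 2 had the highest of both sums and the lowest pan-leukocyte sum, 5567 CPM. The part of these cell types in the cytokine levels was not tested.

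Treatment and control were then compared within the granulosa-rich libraries (4 treatment, 5 control). Of 21 members that passed the filter, 12 had higher and 9 lower fitted values in treatment, against 52.9% of the 9272 features tested, and the median log2 fold change was 0.18 over the members and 0.04 over all features. When counts were scaled by library size only, the median over all features shifted to 0.19 and that of the members to 0.26. All 5 CC chemokines tested had higher and all 4 ELR chemokines lower fitted values, though the medians of those 4 were higher in treatment. No feature passed with edgeR (0%) or limma-voom, and DESeq2 called 27, none of them a member. An unadjusted p under 0.05 was found for 2 members, CCL2 and CXCL12, against 4.67% of features. These counts depended on control replicate 3. Without it 14 of 18 members had higher fitted values, against 55.5% of features, with medians of 1.41 and 0.08. An unadjusted p under 0.05 (edgeR) was then found for 5 members, against 6.52% of features, and 0 were called. Without treatment replicate 4, 10 of 21 members had higher fitted values, with a median of -0.02. With all 9 libraries, the 10 pan-leukocyte markers all had higher medians in treatment. They summed to 255 to 879 CPM in treatment and to 15.9 to 1039 CPM in control. All 13 T and NK cell markers likewise had higher medians in treatment, with sums of 16.8 to 234 CPM in treatment and 6.51 to 279 CPM in control. Their part in the chemokine levels was not tested.

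**Figure D3:**
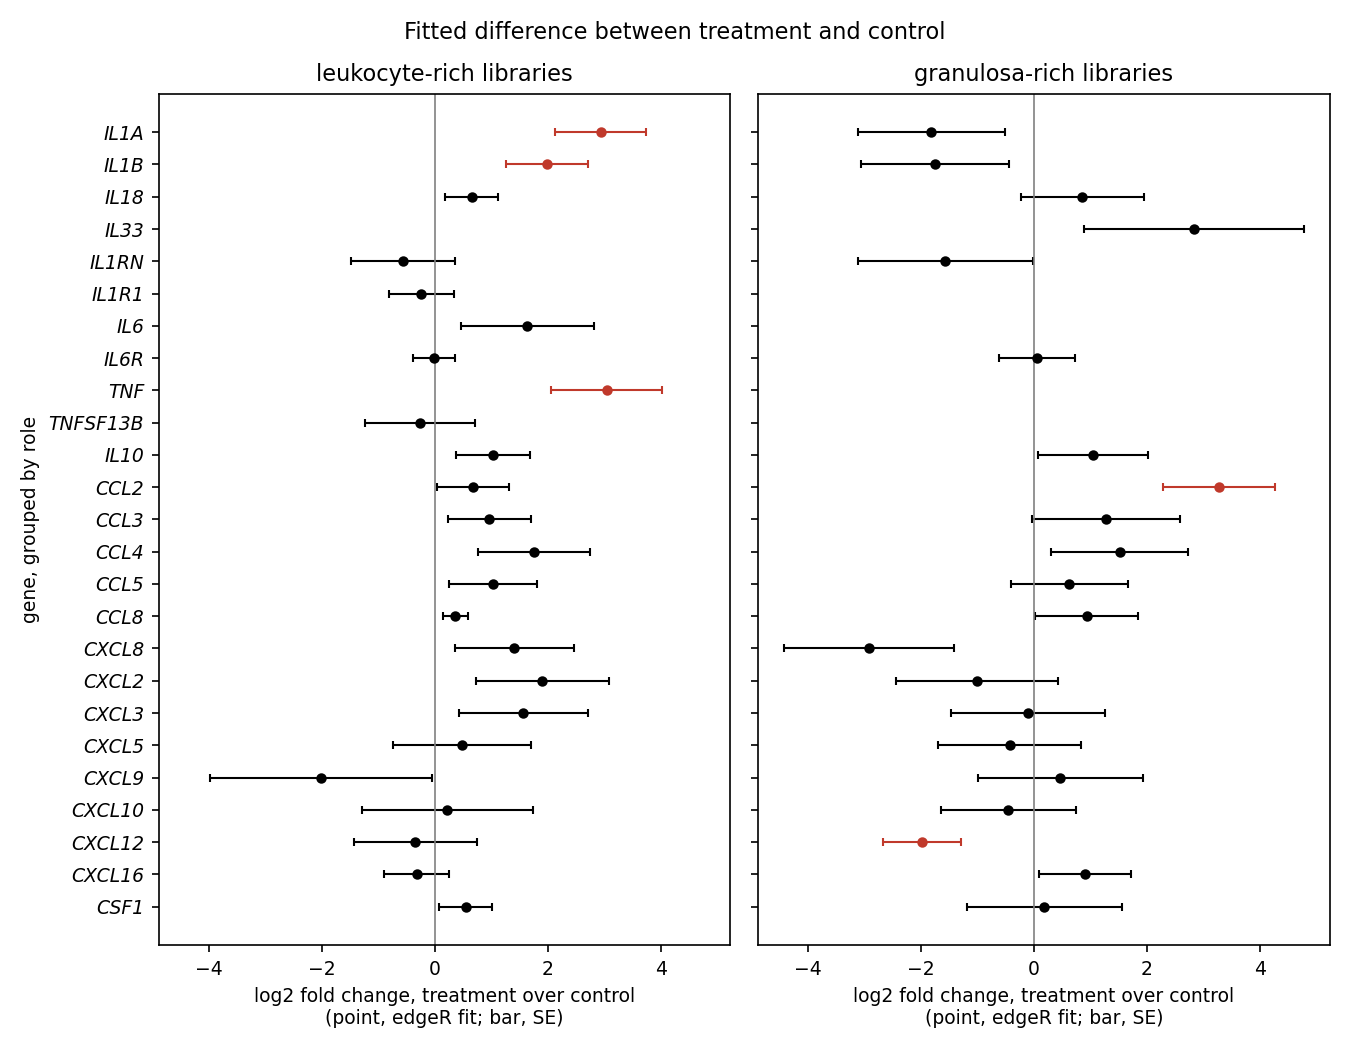
Fitted log2 fold change of treatment over control (points, with SE as bars; edgeR) for the members tested in leukocyte-rich (left) and granulosa-rich (right) libraries, in order of role; red marks an unadjusted p under 0.05, and none passed after adjustment. IL1A, IL1B and the ELR chemokines CXCL8, CXCL2, CXCL3 and CXCL5 lie right of 0 on the left and left of 0 on the right. The granulosa-rich medians of these genes were nevertheless higher in treatment.

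Whether the label's fold change differed between the 2 kinds was tested directly, as the log2 fold change in leukocyte-rich minus that in granulosa-rich libraries. IL1A had a difference of 4.69 ± 1.65 (SE; edgeR, unadjusted p = 0.0123, adjusted p = 0.911). For TNF it was 3.8 ± 1.36 (SE; edgeR, unadjusted p = 0.0134, adjusted p = 0.911). TNF had only 1 to 9 counts in the granulosa-rich libraries and did not pass the filter of their own fit. IL1B differed by 3.69 ± 1.71 (SE; edgeR, unadjusted p = 0.0467, adjusted p = 0.911) and CXCL8 by 4.24 ± 1.99 (SE; edgeR, unadjusted p = 0.0501, adjusted p = 0.911). The difference was 2.47 for IL1B without treatment replicate 3 and 2.56 for CXCL8 without control replicate 3. Of 25 members tested, 3 (IL1A, IL1B and TNF, the last with few granulosa-rich counts) had an unadjusted p under 0.05, against 5.31% of the 11468 features. edgeR and limma-voom called 0 features (0%), and DESeq2 called 24, none of them a member.

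Over all 16 libraries, with both kinds pooled, 17 of 22 members that passed the filter had higher fitted values in treatment, against 52.1% of the 9653 features. No feature passed (0%; 0 with DESeq2 and limma-voom), and 0 members had an unadjusted p under 0.05, against 1.69% of features. The 4 lowest p were those of IL1A at 2.68 ± 1.40, CXCL12 at -0.92 ± 0.71, IL1B at 1.39 ± 1.10 and CCL4 at 1.69 ± 1.36 (log2 fold change ± SE; edgeR, unadjusted p from 0.0738 to 0.231, adjusted p = 0.9999 for each). When the fit also held a term for library kind, the log2 fold change was 0.54 for IL1A, 0.02 for IL1B, -1.22 for CXCL12 and 1.66 for CCL4, and limma-voom gave 0.85 for IL1A and 0.09 for IL1B. IL1A was at 1.49 and CCL4 at 0.28 without treatment replicate 2, IL1B at -0.02 without treatment replicate 3, and CXCL12 at -0.30 without control replicate 6. Without treatment replicate 3, 11 of 23 members had higher fitted values.

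The level of each member was then set against the leukocyte content of the same library, measured as the mean log2 CPM of 10 pan-leukocyte markers, within each kind of library. In the 9 granulosa-rich libraries 16 of 18 members had a positive correlation, with a median Pearson's r of 0.44. CCL5 had the highest, with r = 0.951 and Spearman's rho = 0.917 (two-sided exact permutation test, p = 0.000518 and 0.00131; adjusted over the 8844 features, p = 0.0727). Without the 2 libraries farthest from the median of the marker measure its r was 0.925. CXCL16 had r = 0.751 and rho = 0.483 (exact p = 0.0179 and 0.194) and CXCL10 r = 0.707 and rho = 0.533 (exact p = 0.0267 and 0.148), and r was 0.431 and 0.552 without those 2 libraries. Unadjusted p was under 0.05 for these 3 of 18 members, all with a positive r. Of all features, 5.83% had such a p with a positive r. After adjustment 0.531% of features passed with a positive r, but no member did. CCL2 had r = 0.426 and rho = 0.367 (exact p = 0.253 and 0.336, adjusted p = 0.985 for r). Treatment replicates 4 and 5 lay far above the other libraries of like pan-leukocyte marker level. Monocyte and macrophage markers summed to 1789 and 607 CPM in these, and to 522 and 342 CPM in treatment replicates 6 and 7. Those markers summed to 22.5 to 720 CPM in the controls, and their part in the CCL2 level was not tested. In the 7 leukocyte-rich libraries 0 of 23 members had an unadjusted exact p under 0.05 with r of either sign. Of all features, 3.21% had such a p with a positive r. A positive r was found for 10 of the 23 members, and the median was -0.06. These signs rested on treatment replicate 2 and control replicate 5, the 2 libraries farthest from the median of the marker measure: without them 19 of 23 members had a positive r, with a median of 0.47. For IL1A, r was -0.44 with all 7 libraries and 0.72 without those 2, and for TNF it was -0.41 and 0.78. Points of 1 library share its depth, and 41 correlations were computed in this family.

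**Figure D4:**
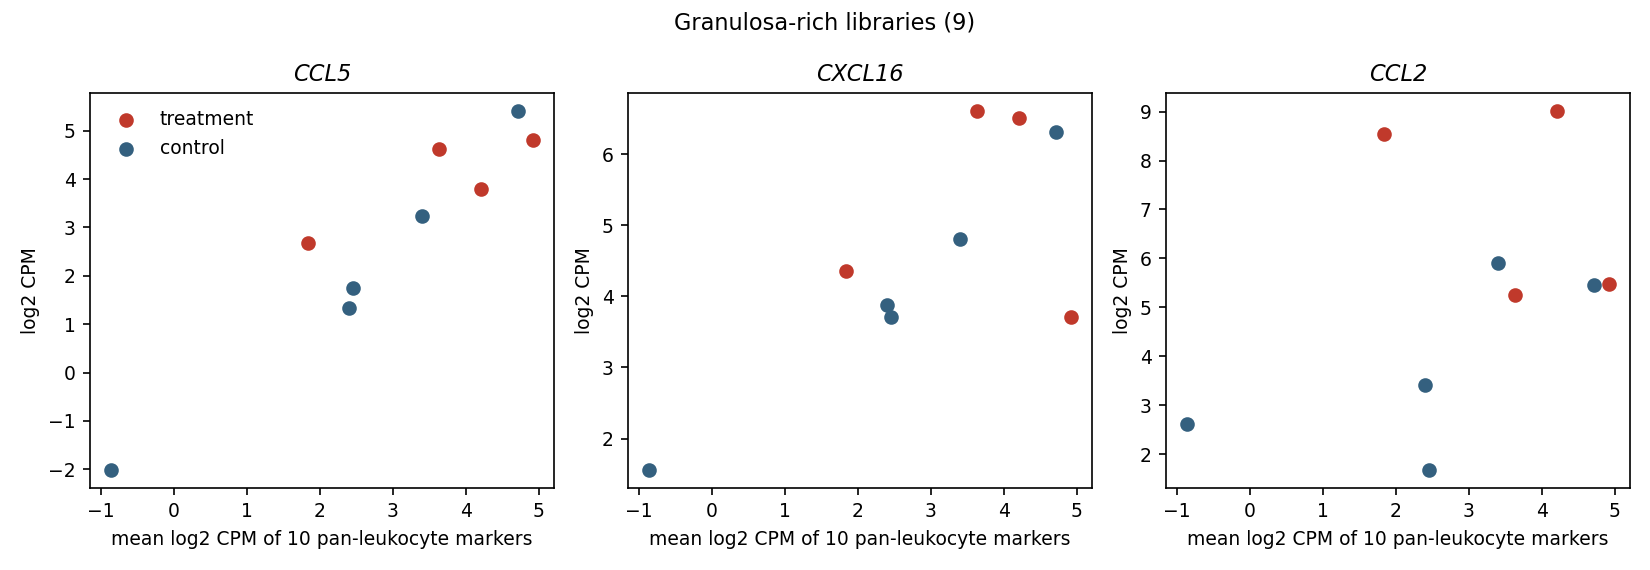
Levels of CCL5, CXCL16 and CCL2 (log2 CPM, vertical) against the mean log2 CPM of 10 pan-leukocyte markers (horizontal) in the 9 granulosa-rich libraries, 1 point per library (red, treatment; blue, control). CCL5 had r = 0.951 and CCL2 r = 0.426, and the CCL2 points of treatment replicates 4 and 5 lie above all others.

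The remaining genes of the pathway were read from lists of receptors and of processing and feedback regulators. Of 36 receptor genes 25 were in the files, and 0 passed in either direction in any of the 4 tests (edgeR). Among leukocyte-rich libraries 13 of 20 tested receptors had higher fitted values in treatment (median 0.22). The share over all features was 51.1% there and 52.9% among granulosa-rich libraries. TNFRSF1B, a receptor of TNF, had the lowest p, at 0.38 ± 0.18 (SE; edgeR, unadjusted p = 0.0651, adjusted p = 0.9996). Among granulosa-rich libraries 11 of 17 had higher fitted values (median 0.36), with CCR1, a receptor of CCL3 and CCL5, at 1.97 ± 1.17 (SE; edgeR, unadjusted p = 0.120, adjusted p = 0.983), and at 0.84 without treatment replicate 4. Of 20 regulators 14 were in the files, and 0 passed in any test. NFKBIZ, a nuclear regulator of NF-kappaB that interleukin-1 induces, was at 2.13 ± 0.65 in the leukocyte-rich libraries (SE; edgeR, unadjusted p = 0.0134, adjusted p = 0.9996). There 11 of 13 regulators had higher fitted values (median 0.44), against 51.1% of features. The difference between kinds was -4.17 ± 2.09 for CCR6, the receptor of CCL20 (SE; edgeR, unadjusted p = 0.0703, adjusted p = 0.911), and -0.57 without treatment replicate 4. That of NFKBIZ was 2.29 ± 1.03 (SE; edgeR, unadjusted p = 0.0411, adjusted p = 0.911). In the granulosa-rich libraries 6 of 9 regulators had higher fitted values, against 52.9% of features. PYCARD, an adaptor of the inflammasome, had the lowest p there, at 1.2 ± 0.64 (SE; edgeR, unadjusted p = 0.0898, adjusted p = 0.983). Without control replicate 3, PYCARD was at 2.07 and the difference of NFKBIZ between kinds at 1.21. Without treatment replicate 2, NFKBIZ was at 1.49 in the leukocyte-rich libraries and at 0.84 over all 16 libraries. Over all 16 libraries the lowest p were those of ACKR3, a scavenger of CXCL12, at 0.77 ± 0.78 and of NFKBIZ at 1.67 ± 0.81 (SE; edgeR, unadjusted p = 0.334 and 0.0548, adjusted p = 0.9999 for each).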

How the data were processed

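Per the labels' protocols, poly(A) RNA was isolated from 200 ng of RNA whose integrity number was 7 or more, and libraries were made with 12 cycles of amplification and a kit that does not mark strand. Reads of overlapping or antisense genes are therefore uncertain. The tools named in the submitters' processing notes are cutadapt, Bowtie2 and SAMtools. Nothing states versions, genome build or how reads with several matches were counted. The deposited files hold whole-number counts per RefSeq accession, not normalized, and accessions without a line were taken as 0. Genomic records (133 accessions, 0.712 to 1.92% of counts) were set aside. Names came from the RefSeq table of assembly ARS-UCD2.0 for 18973 of 27173 transcript accessions, with versions ignored (96.3% of transcript counts), and counts of a gene were summed. No coordinates or sequences are given. No 2 libraries were duplicates (lowest chi-square per feature 61.7).

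Tests used edgeR 4.0.16 (R 4.3.3; quasi-likelihood, robust, TMM, filterByExpr), with Benjamini-Hochberg adjustment over all features. Alternatives used DESeq2 1.42.0 and limma-voom 3.58.1. The test was tried on simulated counts, in which the same spread was set for every gene. That trial gives no measure of error or power for these mixed libraries. The CPM given for 3 counts is that count scaled to the depth of each library and is no estimate of error. Correlations used exact permutations (scipy 1.17.1, Python 3.11.15) and were adjusted over all features of a kind of library, not over the list. The members, lists and kinds of library were chosen with earlier results of these data known. Values in every library are given for 15 members fixed by name, of which TNFSF10 was not analysed here, and for those among the 4 lowest p of each test; fold changes are given for the latter.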

Additional observations from a re-analysis of the deposited data

How the results depend on the processing

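No alternative called a member. DESeq2 called 27 features in the granulosa-rich libraries and 24 for the difference between kinds, where edgeR called 0, and the cause was not tested. Deviations from the group means of same-numbered libraries correlated at -0.604 to 0.604 over 7 pairs. These values followed library kind and so cannot show whether the numbers pair the libraries. They were 0.604, 0.318 and 0.44 for numbers 1, 4 and 7, with both libraries of the same kind, and negative for the others. Deviations from the means of group and kind correlated at -0.209 to 0.146, so no pairing by replicate number was seen. With that number as a block, 0 features were called in each test, 19 of 21 members had higher fitted values in the granulosa-rich libraries (12 without it), and the log2 fold change was -0.0402 for IL1B over all 16 libraries and 2.03 for CXCL8 in the granulosa-rich ones. In the difference between kinds, a setting chosen after seeing the data, that block gave -3.34 for IL1A, -0.0035 for IL1B, -3.76 for CXCL8 and -1.79 for NFKBIZ. With TMM-scaled CPM, a setting chosen after seeing the data, 0 members in place of 1 had treatment and control ranges apart in the granulosa-rich libraries. The granulosa-rich fit with the block had 2 shared numbers, and none could be made for the leukocyte-rich libraries. Leaving out each library in turn gave 11 to 20 members with higher fitted values over all 16 libraries, and log2 fold changes of -0.0191 to 1.62 for IL1B, -0.30 to 1.26 for ACKR3 (both over all 16) and -3.51 to 5.22 for IL33 in the granulosa-rich libraries. With monocyte and macrophage markers in place of pan-leukocyte markers, 2 members in the leukocyte-rich and 7 in the granulosa-rich libraries had an unadjusted exact p under 0.05, against 0 and 3. The share of all features with such a p was not recorded for that measure, so these counts cannot be read as particular to the members. Direction and side of the threshold were kept by 282 fold changes with 1 library left out and by 138 under other settings (not by 3 and 6). Counts were judged only by whether they stayed within a fixed ratio of the main value. This held for 95 counts with 1 library left out and for 47 under other settings (not for 1 and 7). The exceptions are all given above. The correlations were not recomputed with each library left out. Depth limits IL1R2, IL15, LIF, CSF2 and CSF3, with under 10 counts in every library, and TNF in the granulosa-rich ones.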

Other observations

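Ratios of counts within a library were looked at after the levels had been seen, with 0.5 added to each count. The ratio of IL1RN to IL1B, antagonist to ligand, was 0.0663, 0.0442 and 0.0425 in leukocyte-rich treatment libraries, against 0.0702, 0.173, 0.0917 and 1.23 in leukocyte-rich controls. The 3 treatment libraries all lay below the 4 controls, by a narrow margin, and the log2 ratio differed by -1.95 (two-sided exact permutation test over 35 splits, p = 0.0571, the smallest that 3 against 4 allows). In granulosa-rich libraries the ratio was 3.74, 0.159, 0.0421 and 0.0206 in treatment, against 0.0213, 0.0844, 0.0542, 0.0154 and 0.162 in control, and the groups overlapped (difference 1.67 on the log2 scale, exact permutation p = 0.429 over 126 splits).

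The ratio of CCL2 to CD14, a chemokine of monocytes to their surface marker, was 2.21, 1.79 and 2.01 in leukocyte-rich treatment libraries, against 0.403, 0.918, 1.68 and 0.704 in leukocyte-rich controls. Here too the groups did not overlap (log2 difference 1.29, two-sided exact permutation p = 0.0571, the smallest possible). In granulosa-rich libraries the ratio was 1.55, 4.60, 0.83 and 0.705 in treatment, against 1.13, 0.198, 0.352, 0.383 and 1.01 in control (log2 difference 1.52, exact permutation p = 0.111). Treatment replicate 5 had the highest ratio of the 16 libraries. These were 4 tests on 2 ratios picked for their pattern, and none passes a threshold of 0.05.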
